A study of Mus musculus with 11 samples.

Results

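The spleens of 4 MRL mice lacking the DNA sensor cGAS were compared with those of 3 WT mice of the same strain, with RNA levels set against the panel median of each mouse. These 7 mice were chosen by their sample titles, which read cGAS/Mrl or WT/Mrl, from 11 samples in the series, and all 93 genes of the panel were used. Levels come from a NanoString nCounter panel, in which color-coded probes bound to each RNA are counted without amplification. The study asked whether the cGAS-STING pathway promotes or restrains lupus-like disease, and this panel compares innate immune RNAs between genotypes.

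All 7 mice were female and untreated as far as the labels say. The labels give no age, and the study states one for its flow cytometry and organ weights but not for this panel in particular. The labels name the tissue as spleen, and the study's text speaks of total splenocytes. Both groups are of the MRL/MpJ-Fas lpr strain, in which a mutation of the death receptor Fas leads to lymphoid enlargement and autoantibodies. The controls therefore carry Fas lpr too. cGAS KO/Fas lpr mice were made by CRISPR/Cas9 deletion of an exon of cGAS directly on this strain. The titles write neither KO nor Fas lpr, and both were taken from the study's methods. The panel has no probe named for cGAS or STING, so loss of the target cannot be checked here.

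cGAS binds double-stranded DNA in the cytosol and makes cGAMP, which activates STING. STING then drives transcription of type I interferons, whose receptor induces a wide set of interferon-stimulated genes. Endosomal Toll-like receptors, which need the chaperone unc93b to reach endosomes, form a separate arm that senses nucleic acids taken up by B cells and dendritic cells and is required for autoantibodies in Fas lpr mice.

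The deposited signal of each mouse is a count multiplied by a single factor, and the counts were read back from it. For WT/Fas lpr mice the total counts were 28406, 50223 and 58404, and for cGAS KO/Fas lpr mice they were 41885, 57548, 43164 and 47134. The level of a gene is given below as its signal divided by the median signal of the 93 genes in the same mouse, so that the factor cancels. A change shared by the whole panel is therefore not visible on this scale. The median signal itself was 71.0, 212 and 281 in WT/Fas lpr and 181, 228, 125 and 164 in cGAS KO/Fas lpr mice. Differences are log2 levels in cGAS KO/Fas lpr minus WT/Fas lpr mice, with 95% intervals from limma. The panel held 0 of the marker genes looked for, which were 5 for T cells, 5 for B cells, 4 for plasmacytoid dendritic cells, 5 for myeloid cells, 4 for neutrophils and 4 for erythroid cells. The tissue and its cell makeup thus could not be checked from this panel, and fewer cells of a type cannot be told apart from less RNA per cell. By flow cytometry of splenocytes, the study reported modestly higher percentages of T cells lacking CD4 and CD8, and of plasmacytoid dendritic cells, in cGAS KO/Fas lpr mice. It does not state whether the mice of this panel were among those stained.

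None of the 93 genes differed between genotypes at an adjusted p of 0.05 with limma (0 of 93, 0.0%), and the smallest adjusted p was 0.997. At an unadjusted p under 0.05 there was 1 gene, viperin (1.08%), and limma's voom on the counts also called 0 genes, with 4 at that unadjusted p. The differences lay above 0 for 42 genes and below 0 for 51, with a median of -0.01. This division follows the scale, as 50 to 61 genes lay above 0 and the median was 0.02 to 0.07 under 4 other scalings. They ran from -1.05 for cxcl2 to 0.38 for Il-10, and 79 of the 93 were smaller than 0.25 in size. Without WT/Fas lpr mouse 1 these were -0.57 and -0.06. When single mice were omitted, 52 of the 93 differences turned in sign at least once, as did the medians of 11 of 16 gene groups, counting the genes in no list as a group. The signs of small differences given below are thus descriptions of these 7 mice.

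The intervals say how large a difference, relative to the panel median, these 7 mice leave possible. For 85 of the 93 genes the whole interval lay within a 2-fold change in either direction, and for 92 within 4-fold. Among the 80 genes with a geometric mean count of at least 20, called expressed here, 77 were bounded within 2-fold, compared to 8 of the 13 genes with lower counts. The largest change still inside the interval had a median of 1.42-fold over the expressed genes and 1.77-fold over the others. A bound of 1.5-fold held for 58 genes. This count fell to 36 without WT/Fas lpr mouse 3 and to 38 without mouse 2 of that genotype. When the intervals were widened to hold for all 93 genes together (Bonferroni), 36 genes were bounded within 2-fold, 84 within 4-fold and 0 within 1.5-fold.

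**Figure D1:**
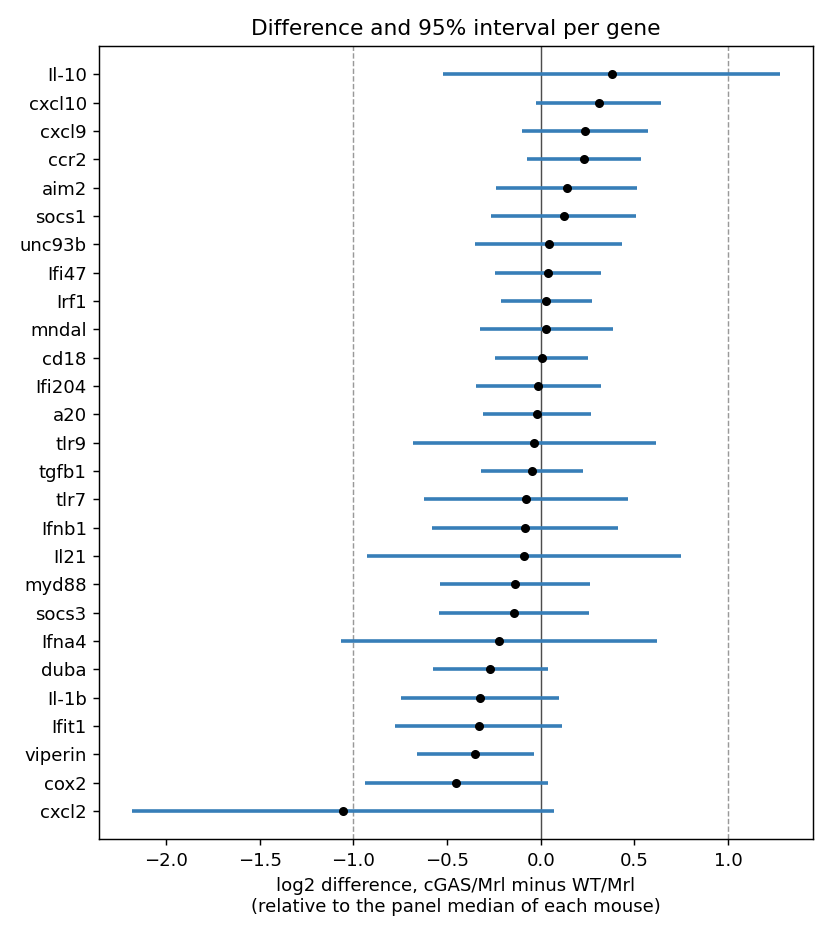
Difference in log2 level between cGAS KO/Fas lpr (n = 4) and WT/Fas lpr (n = 3) mice for 27 named genes, on the horizontal axis, with points for the estimate and bars for the 95% interval from limma. Dashed lines mark a 2-fold change, and the bars of cxcl2, Ifna4 and Il-10 cross one of them.

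Type I interferons are the direct output of STING. Ifnb1 had levels of 0.0943, 0.0747 and 0.0580 in WT/Fas lpr and of 0.0658, 0.0941, 0.0592 and 0.0659 in cGAS KO/Fas lpr mice. The genotypes overlapped, and the difference was -0.08 with an interval of -0.58 to 0.41. Its sign turned without WT/Fas lpr mouse 1, to 0.09. Its counts were only 9 to 19. Its SD between mice of a genotype was 0.32 on the log2 scale and counting error alone gives 0.43, so that the interval is narrower than the counts themselves allow. Ifna4 was lower still, at counts of 3 to 11, and its interval of -1.06 to 0.62 was not bounded within 2-fold. Background of the probes was not measured here, so the RNA behind such counts is uncertain.

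The interferon-stimulated genes are read as a more sensitive output of interferon. Of the 8 placed in this list, 3 lay above and 5 below 0, none was called and all 8 were bounded within 2-fold. Other genes that interferon induces, such as Irf7, adar and cxcl10, were counted in other lists. The median difference of the 8 was -0.07, beside -0.01 over all genes. It was -0.19 without WT/Fas lpr mouse 1 and -0.14 without cGAS KO/Fas lpr mouse 1, but lay at 0.00 without WT/Fas lpr mouse 2 and at 0.01 without centring or with centring on expressed genes. viperin, an antiviral radical SAM enzyme, had the smallest p of the panel. Its level was 11.5, 11.3 and 13.3 times the panel median in WT/Fas lpr and 11.1, 8.995, 8.59 and 9.25 times in cGAS KO/Fas lpr mice. Every cGAS KO/Fas lpr mouse was below every WT/Fas lpr mouse, although mouse 1 came close. The means were 12.0 ± 1.07 (SD, n = 3) and 9.47 ± 1.09 (SD, n = 4). The difference was -0.35 (standard error 0.14), with an interval of -0.66 to -0.04 and an unadjusted p of 0.032, which the adjustment over 93 genes did not pass. The interval crossed 0 in 5 of the 7 fits that left out a single mouse, with the smallest difference, -0.28 (-0.65 to 0.09), without WT/Fas lpr mouse 3.

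Ifit1, which binds viral RNA lacking host cap methylation, had levels of 0.245, 0.293 and 0.353 in WT/Fas lpr and 0.243, 0.287, 0.237 and 0.180 in cGAS KO/Fas lpr mice. The genotypes overlapped, and the interval of the difference was -0.77 to 0.11. Ifi47, an interferon-inducible GTPase, was among the most highly counted genes and was bounded tightly, at 0.04 with an interval of -0.24 to 0.32. The cytosolic RNA sensors lgp2 and mda5 and the genes Ifit2 and oas2 had differences of -0.24, -0.07, -0.07 and 0.01. Each of their 95% intervals lay within a 2-fold change, but the Bonferroni intervals of lgp2, Ifit2 and oas2 did not. Single mice moved these values, with lgp2 at -0.13 without WT/Fas lpr mouse 2, Ifit2 at -0.25 without mouse 1 and 0.03 without mouse 3 of that genotype, and oas2 at 0.20 without cGAS KO/Fas lpr mouse 2. mda5 was -0.15 without cGAS KO/Fas lpr mouse 1 and 0.01 without WT/Fas lpr mouse 2.

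Of 8 genes for DNA sensors and nucleic acid restrictors, 5 lay above and 3 below 0, with a median of 0.02, and all 8 were bounded within 1.5-fold. aim2, which assembles an inflammasome on cytosolic DNA, had levels of 4.10, 5.52 and 5.44 in WT/Fas lpr and 6.04, 5.97, 5.52 and 4.53 in cGAS KO/Fas lpr mice. These ranges overlapped, and the interval of the difference was -0.24 to 0.52. The difference of 0.14 became -0.05 without mouse 1 of both genotypes. Ifi204, a related DNA-binding protein, differed by -0.01, with an interval of -0.35 to 0.32. The sign of this difference turned with centring on the mean, on expressed genes or by the median of ratios, as did that of a20. mndal, of the same family, differed by 0.03, with an interval of -0.33 to 0.38. trex1, the exonuclease that degrades cytosolic DNA upstream of cGAS, had an interval of -0.11 to 0.48. That of samhd1, which depletes nucleotides, was -0.33 to 0.20, and that of adar, which edits double-stranded RNA, was -0.41 to 0.14.

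The 4 genes of the interferon-gamma axis had a median difference of 0.22, and none was called. WT/Fas lpr mouse 1 was the lowest of the 7 mice for 3 of them, and the median was 0.12 without it and 0.07 without mouse 1 of both genotypes. cxcl10, a ligand of CXCR3 that recruits T cells, had levels of 3.18, 3.04 and 3.27 in WT/Fas lpr and of 4.38, 3.37, 3.51 and 4.53 in cGAS KO/Fas lpr mice. All 4 cGAS KO/Fas lpr mice were above the 3 WT/Fas lpr mice, with mouse 2 just above. The means were 3.16 ± 0.114 (SD, n = 3) and 3.95 ± 0.594 (SD, n = 4), and the interval of the difference was -0.03 to 0.64. cxcl10 was the 1 gene of 93 (1.08%) with all cGAS KO/Fas lpr mice above. For a fall of cxcl10, the lower end of this interval was 0.982 times the WT level. That end was 0.90 times without WT/Fas lpr mouse 2, and the Bonferroni interval reached down to -0.49. Without cGAS KO/Fas lpr mouse 2 the interval lay above 0 (0.03 to 0.74), at an adjusted p from limma of 0.992. cxcl9, the other CXCR3 ligand on the panel, had levels of 11.7, 12.6 and 12.6 in WT/Fas lpr and 17.1, 13.5, 12.2 and 15.7 in cGAS KO/Fas lpr mice. The genotypes overlapped, and the interval was -0.10 to 0.57. Ifng itself was highest in cGAS KO/Fas lpr mouse 1, at 0.467 compared to 0.257 to 0.263 in the other cGAS KO/Fas lpr mice and 0.198 to 0.339 in WT/Fas lpr mice. Its difference of 0.19 became -0.02 without that mouse and -0.01 without WT/Fas lpr mouse 1. nlrc5, a transactivator of MHC class I genes, differed by 0.17, with an interval of -0.14 to 0.48, and by 0.05 without WT/Fas lpr mouse 1.

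The study set the endosomal Toll-like receptors against cGAS. The list here is wider than that arm, as it holds every Toll-like receptor of the panel, with myd88 and unc93b. Of 11 genes, 7 lay above and 4 below 0, with a median of 0.02, and all 11 were bounded within 2-fold. tlr7, a receptor for single-stranded RNA, had levels of 0.877, 1.06 and 1.00 in WT/Fas lpr and 0.586, 1.02, 1.16 and 1.05 in cGAS KO/Fas lpr mice. tlr9, a receptor for DNA with unmethylated CpG, had levels of 0.991, 0.966 and 1.04 in WT/Fas lpr and 0.566, 1.30, 1.30 and 0.946 in cGAS KO/Fas lpr mice. Both were lowest in cGAS KO/Fas lpr mouse 1, and the WT/Fas lpr mice lay inside the range of the other genotype for tlr9. The intervals were -0.62 to 0.47 for tlr7 and -0.68 to 0.61 for tlr9. unc93b was also lowest in that mouse, at 13.9 compared to 18.4 to 22.0 in the other cGAS KO/Fas lpr mice and 16.8 to 18.3 in WT/Fas lpr mice, and its interval was -0.35 to 0.43. Without mouse 1 the median of the list was 0.18, and the differences of tlr7 and tlr9 turned from -0.08 and -0.03 to 0.14 and 0.23. myd88, the adaptor of most Toll-like receptors, differed by -0.14, with an interval of -0.54 to 0.27, and moved the other way without that mouse, to -0.27. The myd88 difference was -0.04 without cGAS KO/Fas lpr mouse 3.

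Negative regulators of innate signaling were divided, with 2 of 7 genes above and 5 below 0 and a median of -0.11. That median was -0.02 without WT/Fas lpr mouse 2, -0.03 with centring on expressed genes and -0.04 without centring. duba, a deubiquitinase that limits interferon induction through TRAF3, had levels of 11.6, 12.9 and 14.7 in WT/Fas lpr and 11.5, 9.69, 11.5 and 10.6 in cGAS KO/Fas lpr mice. The genotypes did not overlap, by a small margin in mouse 1 of each. The interval was -0.58 to 0.04. Without WT/Fas lpr mouse 1 it was -0.69 to -0.0048, and duba was not called. In all, 3 of the 93 genes (3.23%) had every cGAS KO/Fas lpr mouse below every WT/Fas lpr mouse, namely viperin, duba and cox2. a20, which restrains NF-kB by editing ubiquitin chains, differed by -0.02 and was tightly bounded, at -0.31 to 0.27. socs1 and socs3, feedback inhibitors of cytokine receptor kinases, had intervals of -0.26 to 0.51 and -0.54 to 0.26. The NF-kB subunit genes nfkb1 and nfkb2 differed by -0.08 and -0.10. The first became 0.01 without WT/Fas lpr mouse 2, and the other 0.05 without cGAS KO/Fas lpr mouse 1. Of the interferon regulatory factors, Irf1 had one of the narrowest intervals of the panel, at -0.21 to 0.27, while Irf2, Irf5 and Irf7 differed by -0.11, -0.11 and -0.08. Without WT/Fas lpr mouse 1 the values of Irf2 and Irf7 were -0.22 and -0.25, and Irf7 was 0.05 without mouse 3 of that genotype.

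cxcl2, a chemokine that attracts neutrophils, had the largest difference. Its levels were 0.538, 0.224 and 0.174 in WT/Fas lpr and 0.0789, 0.0891, 0.217 and 0.204 in cGAS KO/Fas lpr mice. WT/Fas lpr mouse 1 was far above the other WT/Fas lpr mice, and the genotypes overlapped. The difference of -1.05 had an interval of -2.18 to 0.07, so that a fall to 0.220 times the WT level was not outside it. It was -0.57 (-1.67 to 0.52) without WT/Fas lpr mouse 1. The interval lay below 0 without WT/Fas lpr mouse 3 (-2.66 to -0.11) and without cGAS KO/Fas lpr mouse 3 (-2.41 to -0.17) or mouse 4 (-2.47 to -0.05). cxcl2 was not called in any of these fits. The counts were 36 to 57 and 12 to 34. The neutrophil chemokines cxcl1 and cxcl6 differed by 0.10 and -0.03 and were bounded within 2-fold. Without cGAS KO/Fas lpr mouse 4 their differences were 0.30 and -0.14, and without mouse 3 of that genotype -0.08 and 0.06. cox2 was also highest in WT/Fas lpr mouse 1, with levels of 0.50, 0.299 and 0.290 in WT/Fas lpr and 0.230, 0.233, 0.289 and 0.281 in cGAS KO/Fas lpr mice. The gap between the genotypes was slight, and the difference was -0.45 with an interval of -0.94 to 0.04. It was -0.20 (-0.57 to 0.17) without WT/Fas lpr mouse 1. Without mouse 3 of that genotype it was -0.59 (-1.15 to -0.03), at an adjusted p from limma of 0.999.

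Of 9 proinflammatory cytokines, 4 lay above and 5 below 0, with a median of -0.01, and 8 were bounded within 2-fold. Il-1b had levels of 2.90, 2.43 and 2.04 in WT/Fas lpr and 1.95, 1.62, 1.84 and 2.47 in cGAS KO/Fas lpr mice. The genotypes overlapped through mouse 4, and the interval was -0.74 to 0.10. Without that mouse the interval was -0.84 to -0.03, and Il-1b was not called. tnfa lay at 0.25, with an interval of -0.10 to 0.59, and Il6, at counts of 10 to 28, at 0.23 with an interval of -0.21 to 0.66. Il6 was 0.12 without WT/Fas lpr mouse 3 and 0.35 without cGAS KO/Fas lpr mouse 1. Il23a, the subunit particular to IL-23, was not bounded within 2-fold, with an interval of -0.87 to 1.40. Of 6 anti-inflammatory and type 2 cytokines, 2 lay above and 4 below 0, and only 3 were bounded. Il-10 had levels of 0.0660, 0.213 and 0.126 in WT/Fas lpr and 0.230, 0.129, 0.118 and 0.174 in cGAS KO/Fas lpr mice. These values spread widely within each genotype, at counts of 7 to 37, and the interval was -0.52 to 1.28. The difference was -0.06 without WT/Fas lpr mouse 1, which had the count of 7, and 0.79 without mouse 2 of that genotype. Il13 (-1.13 to 0.74) and Il-33 (-1.57 to 0.39) were not bounded on the low side. tgfb1 was at the other extreme, with a difference of -0.05 and an interval of -0.32 to 0.22.

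Among CC chemokines and receptors, 3 of 4 lay above 0. ccr2, the receptor by which inflammatory monocytes leave the marrow, had levels of 3.05, 2.71 and 2.64 in WT/Fas lpr and 2.88, 3.54, 3.15 and 3.62 in cGAS KO/Fas lpr mice. Mouse 1 lay within the WT/Fas lpr range and the others above it, and the interval was -0.07 to 0.54. Without that mouse the interval was 0.02 to 0.58, and ccr2 was not called. nos2, the inducible nitric oxide synthase, was not bounded within 2-fold, with an interval of -0.41 to 1.04. Without cGAS KO/Fas lpr mouse 3 the interval was 0.09 to 1.08, and nos2 was not called. The 4 costimulation and adhesion genes and the 4 inflammasome genes were bounded within 2-fold, with medians of -0.03 and -0.08. These turned to 0.09 and 0.08 without cGAS KO/Fas lpr mouse 1. Il21, a cytokine of follicular helper T cells, had one of the widest intervals among expressed genes, at -0.93 to 0.75. Of the 13 genes in no list, 6 lay above and 7 below 0 and all were bounded.

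For expressed genes the median SD of the log2 level within a genotype was 0.22, compared to 0.10 from counting error alone, and the measured SD was the larger for 74 of the 80. For the 13 genes with low counts the median SD was 0.41 and counting error alone gives 0.48, and the measured SD was the larger for only 4, so that some of their intervals are narrower than the counts allow. The narrow interval of cd18, a leukocyte integrin chain, follows in part from the scale. It lay exactly on the panel median in 4 of the 7 mice, where its level is 1.00 by construction.

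The order of the expressed genes was shared by both genotypes. Spearman's rho between the genotype means was 0.996 across 80 genes, which are not independent replicates, over a range of 7.81 on the log2 scale. Probes differ in how well they capture their RNA, so this is an order of probe signals. Rank was equal for 25 genes, within 3 places for 72, and shifted by at most 5. The 10 highest genes were the same in both genotypes. Among them, unc93b, Ifi47, mndal and Irf1 held ranks 2 to 5 in each, at mean levels of 17.8, 16.4, 14.5 and 14.4 in WT/Fas lpr and 18.5, 16.9, 14.8 and 14.7 in cGAS KO/Fas lpr mice. tgfb1, cxcl9, duba, viperin and ccl5 followed. cxcl9 moved from rank 8 to 6 and duba from 7 to 8.

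Some neighbors in this order did not differ beyond their spread, as unc93b was above Ifi47 in 5 of 7 mice, and mndal above Irf1 in 4 of 7. duba was above viperin in 7 of 7 mice, while viperin was above ccl5 in 3 of 3 WT/Fas lpr and 1 of 4 cGAS KO/Fas lpr mice. Of the 3160 pairs of expressed genes, 2744 (86.8%) stood in the same order in every one of the 7 mice. Only 1 pair (0.0316%) was in one order in all WT/Fas lpr mice and in the other in all cGAS KO/Fas lpr mice, which was IkBa above ccr2 in the former, with a smallest gap of 0.01 on the log2 scale. Rank shifts of 5 places were seen for cxcl10, from 25 to 20, for Il-1b, from 28 to 33, and for cox2, from 68 to 73. cxcl2 also moved by 5, from 74 to 79.

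**Figure D2:**
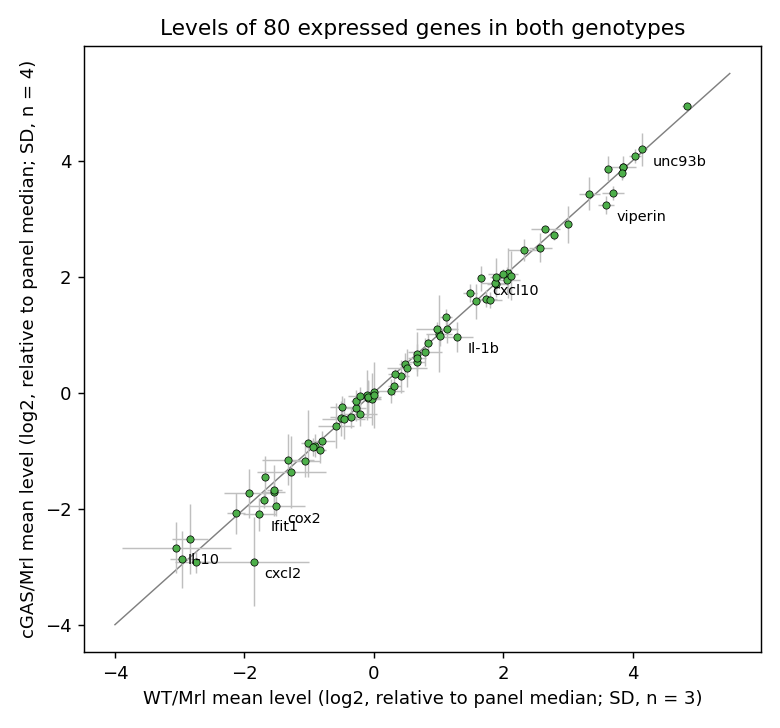
Mean log2 level of the 80 expressed genes in WT/Fas lpr (horizontal, n = 3) and cGAS KO/Fas lpr mice (vertical, n = 4), relative to the panel median of each mouse, with bars for the SD and a line of equal levels. The genes lie along the line, with Spearman's rho of 0.996, and cxcl2 lies farthest from it.

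The agreement between single mice was close within and between genotypes, and the ranges overlapped. Spearman's rho was 0.982 to 0.991 between WT/Fas lpr mice, 0.956 to 0.989 between cGAS KO/Fas lpr mice and 0.968 to 0.990 between genotypes, as a description over the same 80 genes. cGAS KO/Fas lpr mouse 1 stood apart, with a mean rho of 0.970 to the other mice compared to 0.980 to 0.987 for each of those. It was the lowest of the 7 mice for 26 of the 93 genes and the highest for 21, with cGAS KO/Fas lpr mouse 3 next, lowest for 20 and highest for 18. Mouse 1 was lowest for 6 of 11 Toll-like receptor genes and for all 4 inflammasome genes, and highest for 3 of 4 genes of the interferon-gamma axis, cxcl9, Ifng and nlrc5. Mouse 3 was highest for 5 of the 11 Toll-like receptor genes and 3 of the 4 inflammasome genes.

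The genes that follow were chosen after their values were seen, to describe this mouse. cd40, which receives T cell help on B cells, had a level of 1.09 in cGAS KO/Fas lpr mouse 1, compared to 1.85 to 3.06 in the other cGAS KO/Fas lpr mice and 1.77 to 2.32 in WT/Fas lpr mice. cd86, a costimulatory ligand, was 2.67 in that mouse and 3.94 to 5.20 in the others, whereas cd80, another ligand of this kind, was highest there, at 1.99 compared to 1.34 to 1.93. Irf5, which acts downstream of Toll-like receptors, was 2.74 in that mouse and 3.82 to 5.05 in the others. Irf2 and Irf7 were instead highest in that mouse, at 4.86 and 1.74. Without mouse 1 the differences were 0.30 for cd40, 0.20 for cd86 and 0.07 for Irf5, from 0.00, -0.01 and -0.11 with all mice. The part of cell makeup in the values of this mouse was not tested. Without it, 0 genes were called and 85 were bounded within 2-fold, as with all 7 mice, and the smallest adjusted p from limma was 0.618. The viperin difference was then -0.43, with an interval of -0.70 to -0.16.

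**Figure D3:**
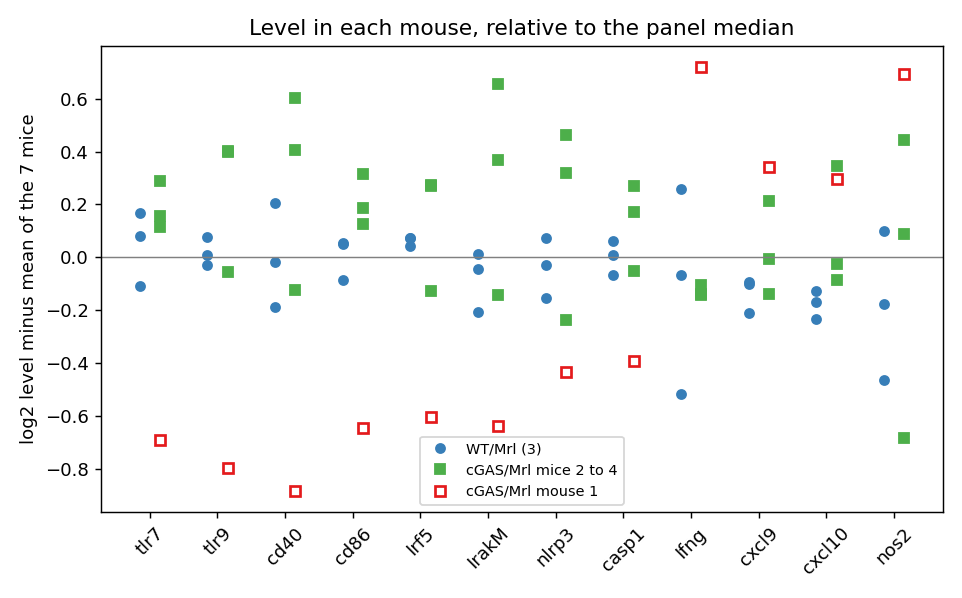
Log2 level of 12 genes in each mouse minus the mean over the 7 mice, with circles for WT/Fas lpr mice, filled squares for cGAS KO/Fas lpr mice 2 to 4 and open squares for mouse 1. The genes were chosen after their values were seen, and mouse 1 is lowest for tlr7 through casp1 and highest for Ifng, cxcl9 and nos2.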

How the data were processed

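RNA of 7 female mouse spleens was measured on the nCounter system. The deposited signal is linear. Housekeeping genes, unnamed in the paper's methods, were used by the authors to normalize it. Of 19 such genes looked for, 0 are on the panel. All values were whole multiples of a factor per mouse (tolerance 0.0001), which gave the counts. log2(signal) minus the median over 93 genes was fitted with limma 3.58.1 (R 4.3.3; lmFit, eBayes), two-sided, with Benjamini-Hochberg adjustment, a threshold of 0.05 and 95% moderated intervals on 8.20 degrees of freedom. The fit was tested on simulated data. Other steps used Python 3.11.15, SciPy 1.17.1 and Matplotlib 3.10.9. Replicate pairs differed by more than counting noise, with chi-square 2.91 to 19.5 times its degrees of freedom.

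Members and lists were chosen with earlier results of these data known. Genes were named by a rule: the 6 smallest p, panel genes of the study's pathways, and among expressed genes the 6 highest levels, the 3 narrowest and 3 widest intervals, and the 3 largest rank shifts, where cxcl2 tied. Other genes given are outside the rule, as examples from their lists, and were chosen after their values were seen. A gene that this rule names, and others outside it, are not reported here. Names are those deposited, and 91 of 93 matched the RefSeq table for GRCm38.p6. cox2 matched a mitochondrial gene there and is also an old name of a prostaglandin synthase, so its identity is uncertain. Alternatives were other centrings, a pseudocount, all 11 samples, a replicate block, each mouse left out, other spread models, the exact Mann-Whitney test and wider intervals. voom, and leaving out mouse 1 of both genotypes, were added after the data were seen.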

Additional observations from a re-analysis of the deposited data

Results flagged for a closer look

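Among the 28 genes named by the rule, Dixon's test in the 4 cGAS KO/Fas lpr mice marked 2 genes for a mouse far from the others, and chance marks about 1 in 20 groups. Genes outside that rule, Ifng among them, are not part of this count. Irf1 was highest in mouse 2, at a level of 15.4 compared to 14.5 to 14.6 in the others, a gap of 0.8918 of the range. cd18 was highest in mouse 4, at 1.01 compared to 1.00 in the other 3 mice, a gap of 1.0 of the range. It lay exactly on the panel median in those 3 mice, so that their equal values are set by the scale.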

How the results depend on the processing

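The count of 0 genes called was the same in each of 19 other limma fits and with the exact Mann-Whitney test, which over 35 divisions of the mice cannot give a p below 0.0571. Genes at an unadjusted p under 0.05 numbered 0 to 8 over those 19, and the smallest adjusted p from limma ran from 0.556 to 0.9997. The values farthest from the result with all mice, 8 genes and 0.556, came from leaving out mouse 1 of both genotypes. That setting was chosen after the data were seen, as these were the WT/Fas lpr mouse of lowest total count and the cGAS KO/Fas lpr mouse that stood apart in gene order. It left 3 against 2 mice. The 8 genes were viperin (-0.46), lgp2, ccr2, Irf2, duba, myd88, Ifit2 and cd80, with ccr2 above 0 and the others below. The median of the interferon-stimulated genes moved to -0.27 there and 82 genes were bounded within 2-fold.

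Without centring, 0 genes were bounded within 2-fold, since the scale of a mouse then enters every gene, and Bonferroni intervals gave 36, being wider by construction. Leaving out each mouse gave 80 to 85. The other alternatives gave 77 to 88, with 77 where only the 80 expressed genes were fitted. The Spearman correlation between genotype means was 0.994 to 0.996 with each mouse left out, 0.996 at a count minimum of 50 and 0.997 over all genes. Of 28 named genes, 13 kept the sign of their difference under all 15 alternatives run for single genes, while 11 changed it without mouse 1 of both genotypes, 7 without WT/Fas lpr mouse 1 and 6 with centring on expressed genes. List medians ran from -0.32 to 0.30. Deviations of same-numbered mice correlated at -0.20, 0.25 and 0.11, which cannot decide a pairing, as the numbers in the titles may be arbitrary. The study calls its WT/Fas lpr mice littermate controls, but the titles name no litters, so the mice were fitted as unpaired. With the replicate block, 0 genes were called and 83 were bounded. edgeR and DESeq2 were planned and not run, as the deposited unit is a normalized signal. The recovered counts rest on the values being whole multiples of a factor per mouse and were not compared to raw counts. voom was run in place of edgeR and DESeq2 on the same recovered counts, so that the same limit applies to it. Counts under 20 limit 13 genes.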
